A study of Mus musculus with 16 samples.

Results

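The 6 genes described here, Efhd1, Prkg2, Chit1, Pcp4, Chl1 and Egfl6, were chosen by their higher values in newborn mouse ovaries that lack Foxl2, so that gain is the criterion of choice and is given as a description without a test. They are 6 of 18193 genes measured, and 11 of 34945 probe sets with a single gene belong to them: 3 for Prkg2, 4 for Chl1 and 1 for each of the others. Tests are given for whether their levels differ with Runx1 genotype, with Foxl2 present or absent, which was not the criterion, although these comparisons share arrays with it. The ovaries were XX, newborn and of mixed genetic background. RNA of 1 ovary went on 1 array, with 4 ovaries for each genotype. DKO ovaries were null for Foxl2 and carried a Runx1 null allele over a floxed allele with the Sf1-Cre transgene (Runx1-/f with Foxl2-/- and Sf1-Cre+/Tg). Foxl2 KO ovaries lacked both Foxl2 alleles, kept Runx1 as a wild-type and a floxed allele and had no Cre (Runx1+/f with Foxl2-/- and Sf1-cre+/+). Runx1 KO ovaries had normal Foxl2 and the same Runx1 alleles and transgene as DKO ovaries (Runx1-/f with Foxl2+/+ and Sf1-cre+/Tg). Control ovaries had a wild-type and a floxed Runx1 allele, normal Foxl2 and no transgene (Runx1+/f with Foxl2+/+ and Sf1-cre+/+), so every group carried at least 1 floxed Runx1 allele. Sf1-cre is active in somatic cells of the gonad, and the loss of Runx1 cannot be told apart from the presence of Cre.

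FOXL2 is a forkhead transcription factor of granulosa cells, the cells that support the oocyte. It is known for keeping ovarian supporting cells from taking on features of Sertoli cells, their counterparts in the testis. RUNX1, a Runt-domain transcription factor, is made by the same cells in the fetal ovary. The genes raised without Foxl2 belong to unrelated protein families. Efhd1 encodes an EF-hand calcium-binding protein of mitochondria, Prkg2 the membrane-bound cyclic GMP-dependent protein kinase, and Pcp4 a small calmodulin-binding protein best known from Purkinje neurons. Chit1 encodes a secreted chitinase, which in humans is a product of activated macrophages. Chl1, the close homolog of L1, is an adhesion protein of the neuronal surface, and Egfl6 is a secreted matrix protein with EGF-like repeats that binds integrins.

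The DNA around the annotated starts of these genes is shown because the members were picked as 1 response to the loss of a DNA-binding factor. RefSeq windows (GRCm38.p6) of 300 bases, 250 before the start and 50 after, were matched by symbol for Efhd1, Chit1, Pcp4, Chl1 and Egfl6. Prkg2 had no entry. Their G and C content ran from 48.3% to 65.3%, against a median of 52.7% over all 32851 windows. The forkhead letters GTAAACA were in none of the 5 windows and in 3.65% of all windows on either strand, and their shorter core TAAACA, part of the same word, was in none of the 5 and in 13.4% of all. The RUNX letters TGTGGT were in the Chit1 window, as in 16.8% of all windows, and the longer TGTGGTT, which contains them, was in none of the 5, against 5.27% of all. The NR5A letters AAGGTCA, the word bound by SF1, were also in the Chit1 window (4.72% of all windows). The SOX letters ACAAAG were in the Chit1 and Chl1 windows (18.7% of all), while a second SOX word, AACAAT (10.7%), and the DMRT word ACATTGT (2.96%) were in none. These are matches of letters and not binding sites, and a missing match says nothing about a factor elsewhere. Below are the windows with matches, Chit1 (chr1:134110992-134111291, plus strand) and Chl1 (chr6:103510626-103510925, plus strand), and that of Efhd1 (chr1:87264103-87264402, plus strand), which held none and belongs to the member with the most even levels across Runx1 genotypes. Capitals mark, from 5′ to 3′, the SOX word, the RUNX word and the NR5A word on the other strand in Chit1, and the SOX word on the other strand in Chl1.
Chit1: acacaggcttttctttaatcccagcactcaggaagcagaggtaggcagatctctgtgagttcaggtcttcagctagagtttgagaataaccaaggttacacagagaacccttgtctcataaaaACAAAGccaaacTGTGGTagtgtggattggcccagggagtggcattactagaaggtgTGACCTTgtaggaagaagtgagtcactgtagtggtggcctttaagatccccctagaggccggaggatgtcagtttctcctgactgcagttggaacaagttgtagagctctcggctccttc
Chl1: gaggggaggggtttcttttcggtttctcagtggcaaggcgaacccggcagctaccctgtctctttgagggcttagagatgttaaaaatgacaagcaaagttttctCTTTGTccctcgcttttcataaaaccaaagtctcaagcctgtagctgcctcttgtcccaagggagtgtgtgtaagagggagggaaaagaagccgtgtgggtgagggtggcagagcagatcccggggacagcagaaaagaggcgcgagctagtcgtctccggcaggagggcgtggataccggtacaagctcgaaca
Efhd1: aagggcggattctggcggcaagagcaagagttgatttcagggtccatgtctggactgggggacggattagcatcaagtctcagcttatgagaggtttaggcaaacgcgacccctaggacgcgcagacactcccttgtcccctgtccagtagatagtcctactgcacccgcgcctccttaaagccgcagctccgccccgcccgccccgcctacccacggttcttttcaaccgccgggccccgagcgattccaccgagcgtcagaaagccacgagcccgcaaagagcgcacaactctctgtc

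The arrays matched their labels for Foxl2. Its probe set 1456410_at read 569.8 to 839 in DKO ovaries, 484 to 889.7 in Foxl2 KO ovaries, 2641 to 3585 in Runx1 KO ovaries and 2774 to 4241 in control ovaries. Runx1 (1422864_at) was less clear, at 2111 to 2370.3 in DKO ovaries, 2356 to 3054 in Foxl2 KO ovaries, 932 to 2127 in Runx1 KO ovaries and 2142 to 2359 in control ovaries. On 1440878_at the values were 273 to 308 in DKO ovaries, 238 to 398 in Foxl2 KO ovaries, 112 to 236 in Runx1 KO ovaries and 269.9 to 315.1 in control ovaries. Runx1 KO ovaries thus read lower than control ovaries on both probe sets, while DKO ovaries, labelled with the same Runx1 alleles and transgene, read at the control level. The log2 differences of Runx1 KO from control, -0.64 and -0.76, did not pass correction over all probe sets (limma adjusted p = 0.530 and 0.404). Of the other Runx1 probe sets, 1422865_at (-0.66) and 1452531_at (-0.25) were also lower. On 1427650_a_at (0.32) and 1452530_a_at (0.08) Runx1 KO ovaries were higher. The Runx1 signal does not bear out the DKO label against control ovaries, and whether any of the 6 Runx1 probe sets covers the deleted part is not known here. DKO therefore stands for the arrays labelled so throughout, and each direction drawn from them, as well as the words "without Runx1", rests on that label. Array medians ran from 134 to 177 at an equal trimmed mean of 500.002, and the number of arrays limits the precision. In Control replicate 4, the red blood cell markers stood 3.18 log2 units above their mean, against at most 0.16 on the other arrays, and the values without it are given where they matter. The measured genes of the Y chromosome (Uty, Kdm5d, Eif2s3y and Zfy2), which XX ovaries do not have, averaged at most 5.34 on the log2 scale, taken here as background. On single arrays Zfy2 read up to 73.3. Control values of Chit1 (34.1 to 84.7) and of 1435162_at of Prkg2 (28.8 to 73.6) overlapped with such readings.

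Levels are array intensities, and differences are on the log2(intensity + 16) scale, which understates changes of low values. A gene was called at a limma adjusted p under 0.05 over all 18193 genes. With Runx1 present, 5 of the 6 genes were called higher in Foxl2 KO ovaries than in control ovaries and Egfl6 was not. Among all genes 1.52% were called in this comparison, and 0.813% were called higher. Without Runx1, 3 of the 6 (Efhd1, Prkg2 and Egfl6) were called higher in DKO than in Runx1 KO ovaries, where 0.989% of genes were called and 0.423% called higher. In DKO against control ovaries, 5 of the 6 were called higher, all but Chl1, beside 2.13% of genes called and 1.28% called higher. The first 2 of these comparisons hold the gain that chose the genes. DKO against control ovaries shares arrays with them and also differs in Runx1 genotype. Nothing is read from the counts of any of the 3. The median difference of the 6 genes was 2.04 in Foxl2 KO against control ovaries and 1.24 in DKO against Runx1 KO ovaries, beside 0.05 and 0.02 over all genes.

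**Figure D1:**
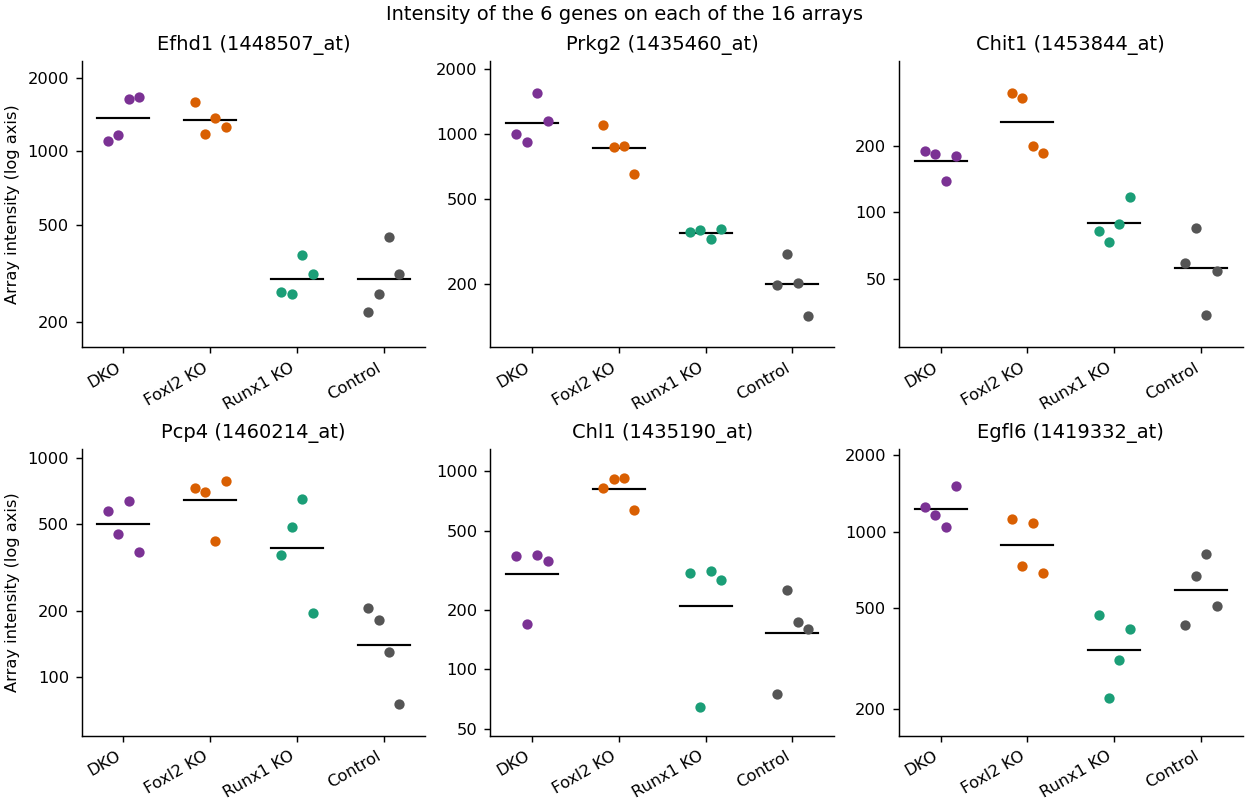
Intensity of each of the 6 genes (log axis) on the 16 arrays, 1 point per ovary, in DKO, Foxl2 KO, Runx1 KO and control ovaries; the line is the group mean on the log2(intensity + 16) scale. Efhd1, Prkg2 and Chit1 separate both Foxl2-null groups from the others, Chl1 is highest in Foxl2 KO ovaries and Egfl6 is lowest in Runx1 KO ovaries.

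Efhd1 read 1099, 1162, 1632 and 1676 in DKO ovaries, 1598, 1181, 1375 and 1262 in Foxl2 KO ovaries, 264, 259, 375 and 314 in Runx1 KO ovaries, and 219.7, 261, 444 and 313 in control ovaries (replicates 1 to 4 in each list of this kind). Every Foxl2-null ovary lay above every ovary with Foxl2, and the groups of either Foxl2 state overlapped. The difference with Foxl2 loss was 2.13 ± 0.21 (SE) without Runx1 and 2.11 ± 0.21 with Runx1. Neither test of Runx1 loss called the gene: DKO against Foxl2 KO ovaries differed by 0.02 (95% confidence interval -0.42 to 0.46), and Runx1 KO against control ovaries by 0.0013 (-0.44 to 0.44). The interaction, which is the DKO minus Runx1 KO difference less the Foxl2 KO minus control difference, was 0.02 (-0.60 to 0.64; limma adjusted p = 0.999). Its sign changed when single arrays were left out.

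Prkg2, the cyclic GMP-dependent kinase, had graded levels. Probe set 1435460_at, which stands for the gene, read 993, 912, 1550.3 and 1145 in DKO ovaries, 1093, 869, 877 and 648 in Foxl2 KO ovaries, 349, 358, 323 and 361 in Runx1 KO ovaries, and 199, 276, 204 and 143 in control ovaries. The 4 Runx1 KO ovaries lay above the 4 control ovaries, while DKO and Foxl2 KO ovaries overlapped. The difference with Foxl2 loss was 1.65 ± 0.20 without Runx1 and 2.01 ± 0.20 with Runx1. Runx1 KO ovaries were higher than control ovaries by 0.75 ± 0.20, which did not pass correction (limma adjusted p = 0.292), and by 0.60 without Control replicate 4. DKO ovaries exceeded Foxl2 KO ovaries by 0.39 ± 0.20 (adjusted p = 0.974), by 0.24 without DKO replicate 3 and by 0.26 without Foxl2 KO replicate 4. The interaction was -0.36 ± 0.28 (adjusted p = 0.945), and -0.21 without Control replicate 4.

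The other probe sets of Prkg2 gave the same order of group means. Probe set 1421354_at read 324, 287, 346 and 351 in DKO ovaries, 271, 219.6, 226 and 214 in Foxl2 KO ovaries, 105, 96.0, 146 and 178 in Runx1 KO ovaries, and 70.2, 61.8, 88.3 and 72.0 in control ovaries. No 2 groups overlapped on this probe set. On 1435162_at the values were 403, 299, 408 and 282 in DKO ovaries, 204, 187, 138 and 150.3 in Foxl2 KO ovaries, 83.4, 57.4, 71.0 and 57.4 in Runx1 KO ovaries, and 37.9, 53.8, 73.6 and 28.8 in control ovaries. Here only the Runx1 KO and control ovaries overlapped. In the fit of all 45037 probe sets, DKO ovaries exceeded Foxl2 KO ovaries by 0.47 ± 0.17 on 1421354_at (limma adjusted p = 0.816) and by 0.97 ± 0.21 on 1435162_at (adjusted p = 0.200), neither past the threshold. The interaction was -0.23 ± 0.24 on 1421354_at and 0.56 ± 0.30 on 1435162_at, so its sign differed between probe sets of 1 gene.

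Chit1, the chitinase, had a smaller difference with Foxl2 loss where Runx1 was also lost. It read 189, 184, 138 and 180.0 in DKO ovaries, 346, 330.4, 200.0 and 185 in Foxl2 KO ovaries, 82.3, 73.5, 88.4 and 117 in Runx1 KO ovaries, and 58.7, 84.7, 34.1 and 54.1 in control ovaries. Both Foxl2-null groups lay above both groups with Foxl2, and DKO ovaries overlapped with Foxl2 KO ovaries only at the lower edge of the Foxl2 KO range. The difference with Foxl2 loss was 0.84 ± 0.23 without Runx1 and 1.92 ± 0.23 with Runx1. DKO ovaries were lower than Foxl2 KO ovaries by a log2 difference of -0.53 ± 0.23 (limma adjusted p = 0.889) and Runx1 KO ovaries higher than control ovaries by 0.55 ± 0.23 (adjusted p = 0.616). The interaction was -1.09 ± 0.32 (limma adjusted p = 0.793). Chit1 is also a macrophage product in humans. None of 8 macrophage markers was called in any comparison, beside 0.011% to 2.13% of all genes, and nothing is read from that count. The summed intensity of these markers ran from 2068 to 2710.1 in DKO ovaries, 2269.6 to 3838 in Foxl2 KO ovaries, 1932 to 3114 in Runx1 KO ovaries and 1902 to 4160.4 in control ovaries. The part of macrophages in the Chit1 level was not tested.

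Pcp4, the calmodulin-binding protein, read 574, 447, 633 and 373 in DKO ovaries, 729, 700.4, 416 and 784 in Foxl2 KO ovaries, 361, 483, 647 and 195 in Runx1 KO ovaries, and 207, 181, 129 and 75.3 in control ovaries. The 3 knockout groups overlapped with each other, and of the Runx1 KO ovaries only replicate 4 reached down into the control range. The difference with Foxl2 loss was 0.35 ± 0.34 without Runx1, 0.04 without Runx1 KO replicate 4 and 0.59 without Runx1 KO replicate 3. With Runx1 it was 2.08 ± 0.34, and 1.82 without Control replicate 4. Runx1 KO ovaries exceeded control ovaries by 1.37 ± 0.34, which did not pass correction over all genes (limma adjusted p = 0.241). This difference was 1.12 without Control replicate 4, and 1.69 without Runx1 KO replicate 4 (limma adjusted p = 0.0894). DKO and Foxl2 KO ovaries differed by -0.35 ± 0.34 (adjusted p = 1.00), by -0.22 without DKO replicate 4 and by -0.55 without Foxl2 KO replicate 3. The interaction was -1.73 ± 0.48 (adjusted p = 0.705), -1.47 without Control replicate 4 and -2.04 without Runx1 KO replicate 4.

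Chl1, the adhesion protein, had its highest levels in Foxl2 KO ovaries alone. Probe set 1435190_at read 375, 169, 378 and 351 in DKO ovaries, 821, 918, 926 and 638 in Foxl2 KO ovaries, 308, 64.8, 314 and 284 in Runx1 KO ovaries, and 74.6, 251, 173 and 159 in control ovaries. All 4 DKO ovaries lay below all 4 Foxl2 KO ovaries, and replicate 2 was far below the rest in both groups that carry Cre. DKO ovaries were lower than Foxl2 KO ovaries by a log2 difference of -1.38 ± 0.42 (95% confidence interval -2.28 to -0.48), which did not pass correction (limma adjusted p = 0.495). Runx1 KO ovaries exceeded control ovaries by 0.42 ± 0.42 (adjusted p = 0.854), by 0.92 without Runx1 KO replicate 2, by 0.64 without Control replicate 2, by 0.25 without Runx1 KO replicate 1, by 0.24 without Runx1 KO replicate 3 and by 0.13 without Control replicate 1. The difference with Foxl2 loss was 0.50 ± 0.42 without Runx1 and 2.31 ± 0.42 with Runx1, and without Runx1 KO replicate 2 the first of these was 0.0100, against 0.77 without DKO replicate 2. The interaction was -1.80 ± 0.60 (adjusted p = 0.822), or -2.30 without that array (adjusted p = 0.262).

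Of the other Chl1 probe sets, 1417795_at gave the same order of group means close to background. It read 69.7, 40.3, 27.2 and 44.5 in DKO ovaries, 68.9, 98.0, 68.6 and 96.3 in Foxl2 KO ovaries, 37.9, 23.1, 41.4 and 37.1 in Runx1 KO ovaries, and 27.1, 13.7, 21.5 and 19.2 in control ovaries. The control mean, 5.17 on the log2 scale, lay below the background level of 5.34, so differences from control ovaries on this probe set may be understated. Its DKO minus Foxl2 KO difference was -0.72 ± 0.20 (limma adjusted p = 0.504) and its interaction -1.20 ± 0.29 (adjusted p = 0.611). The remaining probe sets, 1443713_at and 1447036_at, had group means of 4.57 to 5.23 and 4.47 to 5.02, under the background in every group. They carry no usable level of Chl1.

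**Figure D2:**
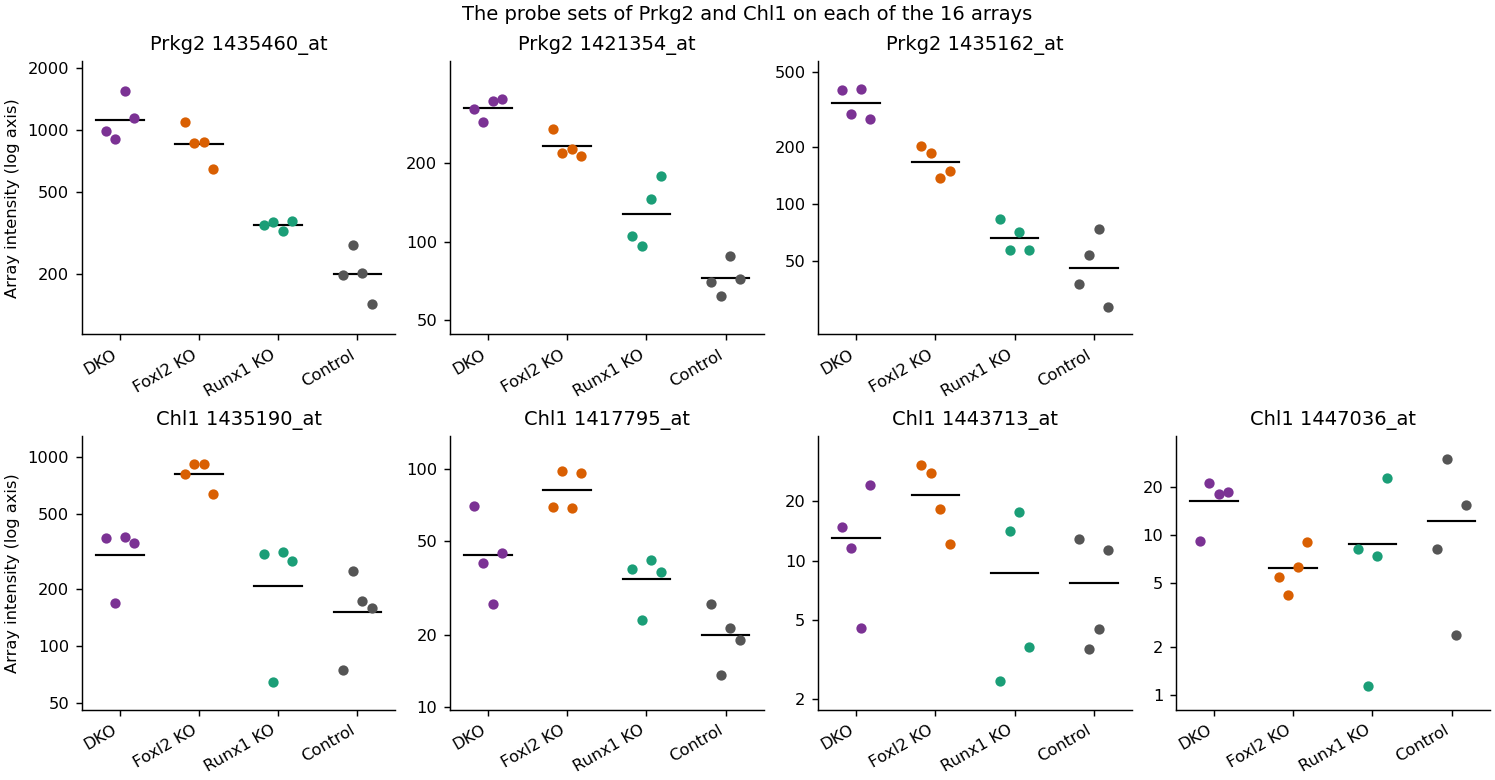
Intensity (log axis) of the 3 probe sets of Prkg2 and the 4 of Chl1 on the 16 arrays, 1 point per ovary, with the group mean on the log2(intensity + 16) scale as a line. The order of the Prkg2 group means is the same on each probe set, while 1443713_at and 1447036_at of Chl1 stay at background intensities.

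Egfl6, the secreted matrix protein, had its lowest mean in Runx1 KO ovaries. It read 1251, 1166, 1039.6 and 1506 in DKO ovaries, 1120, 730.3, 1083 and 689 in Foxl2 KO ovaries, 472, 221, 314 and 413 in Runx1 KO ovaries, and 429, 667, 816 and 509 in control ovaries. Foxl2 KO and control ovaries overlapped, so among Foxl2-null ovaries only the DKO ovaries all lay above every ovary with Foxl2. The difference with Foxl2 loss was 1.80 ± 0.25 without Runx1 and 0.58 ± 0.25 with Runx1. Runx1 KO ovaries were lower than control ovaries by a log2 difference of -0.76 ± 0.25 (limma adjusted p = 0.475), the only negative value among the 6 genes in this comparison. DKO ovaries exceeded Foxl2 KO ovaries by 0.47 ± 0.25 (adjusted p = 0.984), and the interaction was 1.22 ± 0.35 (adjusted p = 0.760). DKO ovaries exceeded control ovaries by 1.04 ± 0.25, a call that was lost without any 1 of DKO replicates 1, 2 and 4, Runx1 KO replicate 3 or Control replicates 1, 2 and 4, where the difference was 0.90 to 1.10.

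**Figure D3:**
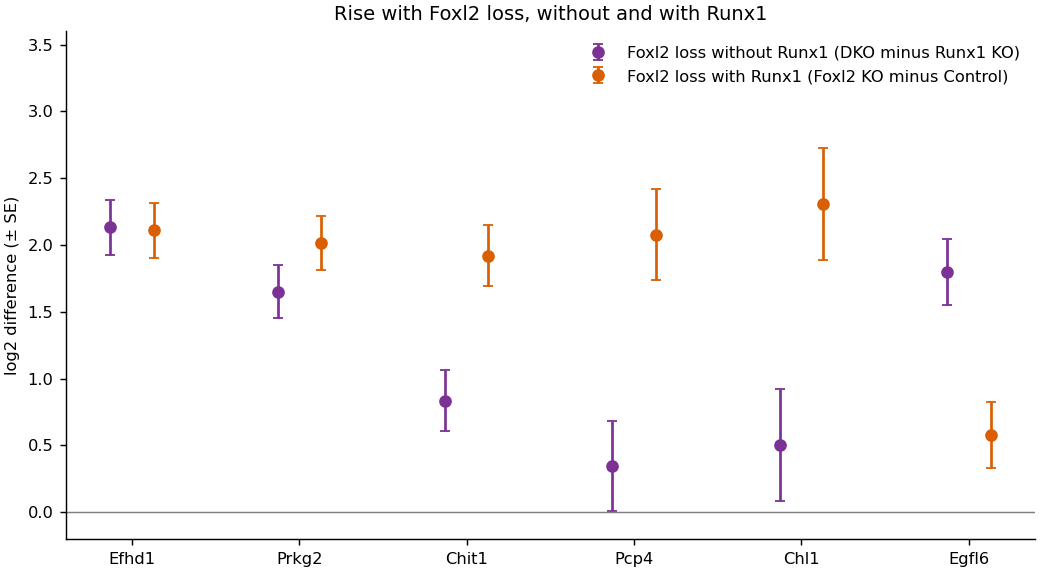
log2 difference (± SE of the limma fit) with Foxl2 loss for each of the 6 genes, without Runx1 (DKO minus Runx1 KO) and with Runx1 (Foxl2 KO minus control), 4 ovaries per group. The values without Runx1 run from 0.35 (Pcp4) to 2.13 (Efhd1) and those with Runx1 from 0.58 (Egfl6) to 2.31 (Chl1); both sets chose the genes.

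None of the 6 genes passed the threshold in any test of Runx1 loss. In DKO against Foxl2 KO ovaries 0 of 6 were called by limma, 2 had an unadjusted p under 0.05 (Chit1 and Chl1, both lower), and 3 values were positive and 3 negative. Over all genes 0.0605% were called and 978 had an unadjusted p under 0.05. In Runx1 KO against control ovaries 0 of 6 were called, 4 had an unadjusted p under 0.05 (Prkg2, Chit1 and Pcp4, higher, and Egfl6, lower), beside 0.121% of all genes called and 1335 at that unadjusted p. The median of the 6 was 0.49, against 0.04 over all genes. In the interaction 0 of 6 were called and the same count, 4, had an unadjusted p under 0.05 (Chit1, Pcp4 and Chl1, negative, and Egfl6, positive), beside 0.011% of all genes called and 970 at that p. The unmoderated analysis of variance of the methods, run on the same values, called 0 of 6 after Benjamini-Hochberg adjustment. At the threshold of the methods, an unadjusted p under 0.05 and over 1.5-fold, it took in Chl1 in DKO against Foxl2 KO ovaries (402 of all genes, 2.21%), Prkg2, Pcp4 and Egfl6 in Runx1 KO against control ovaries (510 genes, 2.8%), and Chit1, Pcp4, Chl1 and Egfl6 in the interaction (572 genes, 3.14%). These tests share arrays with the comparisons that chose the genes and are independent only of the mean difference with Foxl2 loss over both Runx1 states. A choice on Foxl2 KO against control ovaries alone would push DKO minus Foxl2 KO and the interaction downwards and Runx1 KO minus control upwards. A choice on DKO against Runx1 KO ovaries alone would push each of these the opposite way. Egfl6 was called in DKO against Runx1 KO ovaries and not in Foxl2 KO against control ovaries. The signs and medians of the 6 genes, and the values of Egfl6, are to be read with both.

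**Figure D4:**
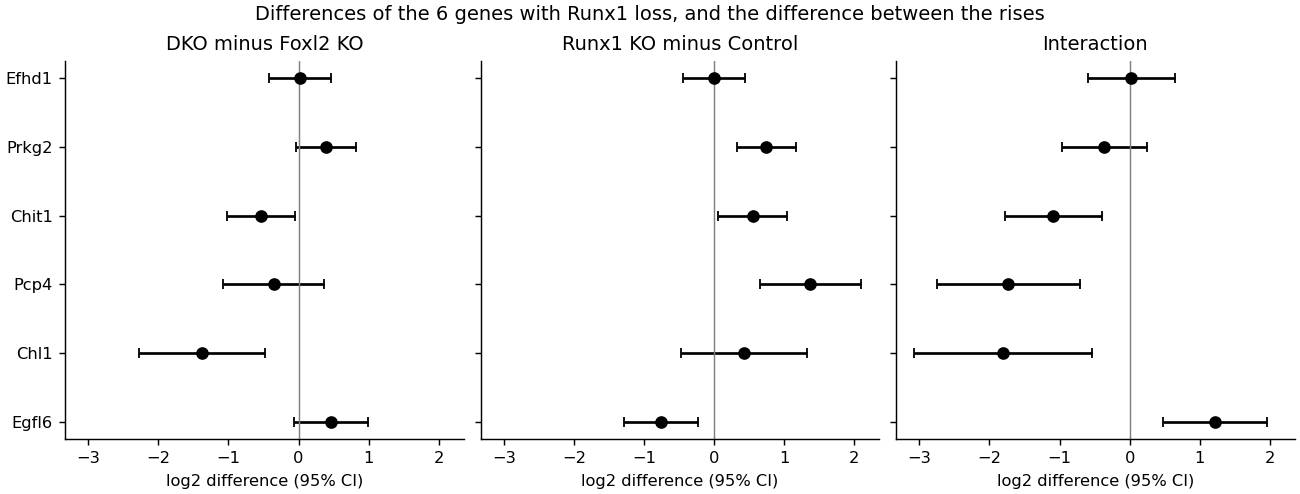
log2 difference with its 95% confidence interval (limma, 4 ovaries per group) for each of the 6 genes in DKO minus Foxl2 KO, in Runx1 KO minus control, and in the interaction, (DKO minus Runx1 KO) minus (Foxl2 KO minus control). Efhd1 lies at 0 in all 3, and Chl1 has the lowest interaction (-1.80) and Egfl6 the highest (1.22); none was called after adjustment over all genes.

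Several Sertoli cell markers differed with Foxl2 genotype. Of 8 Sertoli cell markers, 5 were called higher in DKO than in control ovaries, 4 in Foxl2 KO against control ovaries, 4 in DKO against Runx1 KO ovaries and 1 in Runx1 KO against control ovaries. Of all genes, 2.13%, 1.52%, 0.989% and 0.121% were called in these comparisons, in the same order. Sox9, Dhh, Dmrt1 and Cst9 made up each count of 4, Fgf9 was the fifth gene in DKO against control ovaries, and Fgf9 was also the gene called in Runx1 KO ovaries. Fgf9 averaged 419 in DKO, 327 in Foxl2 KO, 407 in Runx1 KO and 204 in control ovaries, and Dhh 361, 316, 110 and 51.8. The paper, with its own normalization and threshold, reports Fgf9 as significantly raised in DKO only and Dhh as raised in each knockout. The mean log2 deviation of the 8 Sertoli cell markers was 0.41 to 0.54 in DKO ovaries, 0.10 to 0.50 in Foxl2 KO ovaries, -0.40 to -0.08 in Runx1 KO ovaries and -0.62 to -0.47 in control ovaries, so the Runx1 KO ovaries lay between. Their summed intensity ran from 2301 to 2545 in DKO ovaries, 1843 to 2704 in Foxl2 KO ovaries, 1393 to 2225 in Runx1 KO ovaries and 1245 to 2174 in control ovaries. Sox9, the Sertoli cell transcription factor, averaged 351 in DKO, 363 in Foxl2 KO, 137 in Runx1 KO and 122 in control ovaries. Amh, the Sertoli cell hormone, averaged 22.4 in DKO, 14.4 in Foxl2 KO, 22.8 in Runx1 KO and 11.2 in control ovaries, near background. Ptgds and Gata1, also on this list, averaged lower in both Foxl2-null groups than in control ovaries and were not called. Ptgds averaged 338 in DKO, 441 in Foxl2 KO, 646 in Runx1 KO and 535 in control ovaries. For Gata1 the means were 256, 267, 213 and 431 in the same order. Of 8 pre-granulosa cell markers, 3 were called lower in DKO ovaries (Foxl2, Fst and Kitl) and 2 in Foxl2 KO ovaries (Foxl2 and Kitl), both against control ovaries, and Foxl2 is the deleted gene itself. The median difference of this list was -0.02 in DKO and -0.12 in Foxl2 KO ovaries. Wnt4, a ligand of ovarian development, averaged 947 in DKO, 730 in Foxl2 KO, 509 in Runx1 KO and 554 in control ovaries and was not called. Of 7 measured markers of mesonephric ducts, Pax8 alone was called, higher in DKO and in Foxl2 KO than in control ovaries. Markers of oocytes, macrophages, red blood cells, endothelium, stroma and nerve had 0 calls in any comparison. With 0.011% to 2.13% of all genes called in a comparison, nothing is read from these counts, and markers not called can still differ in mean. In whole ovaries, fewer cells of a type and less RNA per cell cannot be told apart, and the part of the cell makeup in the levels of the 6 genes was not tested.

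**Figure D5:**
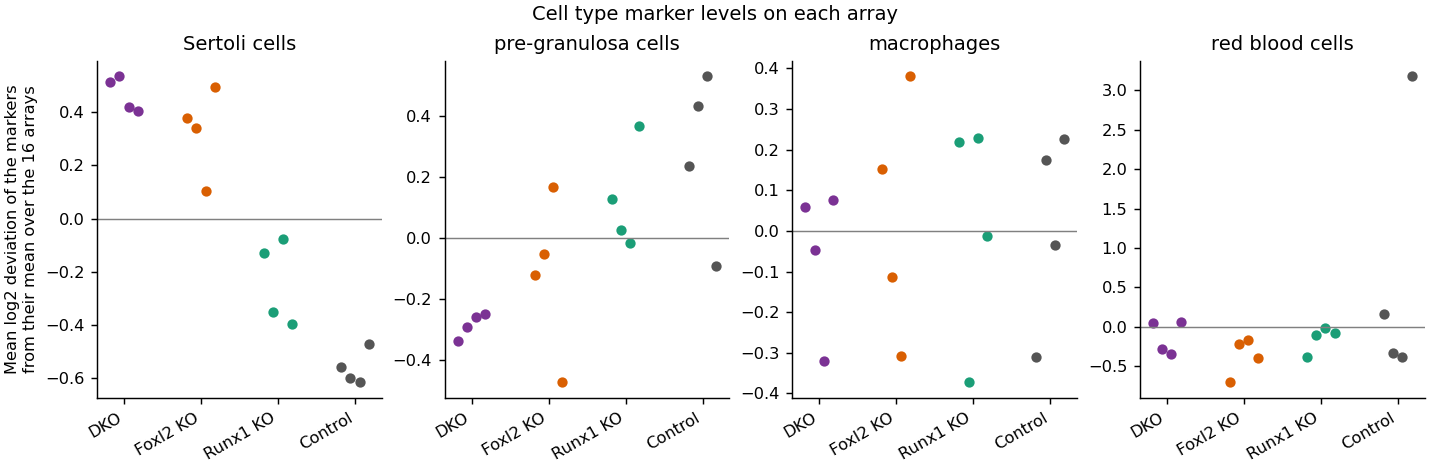
Mean log2 deviation of the markers of Sertoli cells, pre-granulosa cells, macrophages and red blood cells from each marker's mean over the 16 arrays, 1 point per ovary, in DKO, Foxl2 KO, Runx1 KO and control ovaries. Sertoli cell markers separate Foxl2-null ovaries from the others, and red blood cell markers reach 3.18 in Control replicate 4.

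Relatives and partners of the 6 proteins were described from 6 lists that hold 88 genes, of which 81 were measured. In Foxl2 KO against control ovaries 1 of the 81 was called higher and 1 lower, in DKO against control ovaries 2 were called higher, and in the other comparisons 0 were called. Over all genes 1.52% were called in Foxl2 KO and 2.13% in DKO against control ovaries. The counts of the lists are near these shares, and nothing about the lists is read from them. The median over the lists was 0.03 in Foxl2 KO against control ovaries, against 0.05 over all genes. In either of the comparisons with calls, 79 of the 81 were not called. Among 17 EGF-repeat matrix and integrin genes, the relatives of Egfl6, Fbln2, a fibulin of the extracellular matrix, was called higher in Foxl2 KO ovaries, at 321 to 695, against 118 to 293 in control ovaries (difference 1.52 ± 0.31, limma adjusted p = 0.0198), and in DKO ovaries, at 264 to 529, overlapping with control ovaries (1.29 ± 0.31, adjusted p = 0.0419). Of 29 alternatives, the Foxl2 KO call was lost in 9, of which 5 left out an array (Foxl2 KO replicate 2 or 4 or Control replicate 1, 3 or 4; difference 1.36 to 1.52). The DKO call was lost in 18, of which 10 left out an array (DKO replicate 1, 3 or 4, Foxl2 KO replicate 1 or 2, Runx1 KO replicate 1 or 4, or Control replicate 1, 3 or 4, difference 1.16 to 1.29). With the mean of all Fbln2 probe sets, the difference from control was 0.82 in Foxl2 KO ovaries (limma adjusted p = 0.131). In DKO ovaries it was then 0.94 (limma adjusted p = 0.0544).

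Of 13 genes of L1 and contactin adhesion, the relatives and partners of Chl1, L1cam itself was called higher in DKO ovaries, at 94.3 to 182, against 41.5 to 91.6 in control ovaries (difference 1.04 ± 0.23, limma adjusted p = 0.0234). That call was lost in 8 of 28 alternatives, of which 5 left out an array (DKO replicate 1 or 4 or Control replicate 1, 2 or 3, difference 0.90 to 1.02). With the mean of all L1cam probe sets, the difference was 0.50 (limma adjusted p = 0.158). In Foxl2 KO ovaries L1cam read 73.5 to 95.3, a difference of 0.53 ± 0.23 from control that was not called (adjusted p = 0.395). L1cam and Chl1 thus differed in order, with the highest mean of L1cam in DKO ovaries and that of Chl1 in Foxl2 KO ovaries. Ank2, an ankyrin that anchors L1 proteins to the membrane skeleton, was called lower in Foxl2 KO ovaries, at 266 to 401, against 592 to 819 in control ovaries (difference -1.05 ± 0.18, adjusted p = 0.0056). In DKO ovaries Ank2 read 359.6 to 595, a difference of -0.58 ± 0.18 from control (adjusted p = 0.128).

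The other lists held 0 calls in each of the 6 comparisons. For cyclic GMP signalling (19 of 20 genes measured), the lowest p in Foxl2 KO against control ovaries was that of Gucy1b1, a subunit of soluble guanylate cyclase, at 474 to 547 in Foxl2 KO ovaries and 306 to 401 in control ovaries (difference 0.51 ± 0.12, limma adjusted p = 0.0575). For EF-hand and mitochondrial calcium proteins (10 of 12) it was Slc8b1, the mitochondrial sodium-calcium exchanger, with a difference of 0.79 ± 0.36 (adjusted p = 0.436) close to background. Chia1, the acidic chitinase, led the 7 relatives of Chit1 with 0.69 ± 0.42 (adjusted p = 0.611). Nrgn, a calmodulin-binding protein of neurons like Pcp4, led the 15 measured of 19 calmodulin partners with 0.62 ± 0.24 (adjusted p = 0.323). The calmodulin genes themselves were not measured through a probe set of a single gene.

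The genes next to the members on their chromosomes (RefSeq, GRCm38.p6) had no call in any comparison. Over all genes 0.011% to 2.13% were called in a comparison, so nothing about the neighbours is read from this. Between the nearest measured neighbours, which were Eif4e2 and Gigyf2 for Efhd1, Cfap299 and Rasgef1b for Prkg2, Btg2 and Chil1 for Chit1, Igsf5 and Dscam for Pcp4, Cntn3 and Cntn6 for Chl1, and Tceanc and Tmsb4x for Egfl6, the Foxl2 KO minus control difference ran from -0.22 (Rasgef1b) to 0.34 (Dscam). Cntn3 and Cntn6, contactins on either side of Chl1 and members of its adhesion list, differed by 0.98 and 0.77 in DKO against Foxl2 KO ovaries (limma adjusted p = 0.221 and 0.787), in the direction opposite to Chl1.

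Across the 16 arrays the members were alike to different degrees. The correlation of log2 levels over the 15 pairs of members ran from 0.21 to 0.91 with a median of 0.71, and that of the deviations from group means from -0.44 to 0.65 with a median of 0.24. All points share arrays and the first measure includes the choice of the genes. Among 8878 genes above the median level (8879 for Chit1), those with the patterns most like each member over the 16 arrays were Jakmip1 (Pearson's r = 0.95) and Nr0b1 (0.93) for Efhd1, Gas7 (0.96) and Cdkn1a (0.96) for Prkg2, Ptpre (0.89) and Tmem184a (0.87) for Chit1, Nfil3 (0.92) and Chp2 (0.91) for Pcp4, Hunk (0.83) and Fbln2 (0.82) for Chl1, and Acsbg1 (0.92) and Prkcb (0.90) for Egfl6. Spearman's rho for these pairs was between 0.77 (Nr0b1) and 0.97 (Cdkn1a). Chl1 had the lowest leading value. Acsbg1 and Prkcb, like Egfl6, had negative Runx1 KO minus control differences (-0.45 and -0.16). Both were picked by their correlation with Egfl6 on these same arrays, which favours a shared sign.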

How the data were processed

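RNA of 16 single ovaries had been amplified and hybridised to Affymetrix Mouse Genome 430 2.0 arrays. The authors deposited linear intensity values per probe set, made with Affymetrix Expression Console 1.2 and scaled to an equal mean after trimming 2% at each end; the summary algorithm is not given in the sources used here. All columns matched samples, with 0 left over.

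Of 45101 probe sets, 64 controls were left out. A gene was represented by its brightest probe set. limma 3.58.1 in R 4.3.3 fitted 4 group means to log2(intensity + 16), with 12 residual degrees of freedom, two-sided tests and Benjamini-Hochberg adjustment over genes within a comparison. The fit was tested on simulated data. The replicates are separate ovaries.

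The genes described were the members, both targeted genes, called genes of each list (otherwise that with the smallest p in Foxl2 KO against control), the 2 most alike genes and the neighbours of each member. The members and lists were chosen with earlier results of these data known. Alternatives were 3 offsets or floors, 2 scalings, 2 treatments of probe sets, a level filter, 2 priors or weightings, a replicate block, fewer groups, the methods' analysis of variance (run here on the deposited values with the offset and adjusted, where the study used log2 values from another normalization and an unadjusted p with a fold minimum), and leaving out each array; single probe sets and the methods' threshold were added after the data were seen. The replicate number was not treated as a pairing of ovaries: of 24 same-numbered pairs from different groups, 1 had a residual correlation above 0.1 (median -0.0318). That cannot show whether same-numbered ovaries were littermates. The paper describes its controls as littermates, and the litter of each ovary is not known here. Sequences were read with Python 3.11.15.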

Additional observations from a re-analysis of the deposited data

Results flagged for a closer look

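Of 44 groups of 4 arrays formed by the probe sets of the 6 genes, 3 held an array far from the rest, with a ratio of the gap to the group's range above Dixon's 95% critical value; chance gives about 1 in 20. Chit1 in DKO replicate 3 read 138 (ratio 0.843), and without it the DKO minus Foxl2 KO difference was -0.44. Chl1 (1435190_at) in DKO replicate 2 read 169 (ratio 0.905), and without it the DKO minus Foxl2 KO difference was -1.12 (limma adjusted p = 0.768). Chl1 in Runx1 KO replicate 2 read 64.8 (ratio 0.931), and without it that difference kept its value with an adjusted p of 0.174. The weaker Chl1 probe set 1417795_at also had its lowest Runx1 KO value, 23.1, in that ovary.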

How the results depend on the processing

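With 4 ovaries per genotype, the median SE of a log2 difference was 0.20. The 0 calls among the 6 genes in DKO against Foxl2 KO, in Runx1 KO against control and in the interaction stayed at 0 in every alternative run, the lowest adjusted p being 0.174, 0.0894 and 0.262 (limma), while calls over all genes ran from 4 to 18, 6 to 27 and 0 to 4, against 11, 22 and 2. With the replicate number as a block the counts were also 0, 0 and 0 and no member's call changed but that of Egfl6 in DKO against control ovaries (adjusted p = 0.0735). That call was lost in 13 alternatives, and 0 calls of the other members changed in any of them. The median gene moved by less than 0.1 under every scaling.

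Only Efhd1 changed sign among these alternatives: its Runx1 KO minus control difference was -0.00136 with an offset of 50, -0.016 with equal array medians and -0.14 to 0.18 with 1 array left out, its DKO minus Foxl2 KO difference -0.0735 to 0.13 and its interaction -0.16 to 0.16 with 1 array left out. Chl1 on 1447036_at gave -0.19 in Runx1 KO against control, -0.35 in Foxl2 KO against control, 0.55 in DKO against Foxl2 KO and 0.74 in the interaction, at background signal; Prkg2 on 1435162_at gave an interaction of 0.56. The cause was not tested. Over the alternatives fitted to genes, calls in the family lists ran from 1 to 4 in Foxl2 KO against control, from 0 to 3 in DKO against control and from 0 to 1 in DKO against Foxl2 KO ovaries, and in DKO against Runx1 KO ovaries there were 0, and 1 with every probe set on its own. Calls over all genes ran from 175 to 329 in Foxl2 KO against control, from 272 to 465 in DKO against control and from 104 to 248 in DKO against Runx1 KO ovaries.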
